A study of Zea mays with 4 samples.

Results

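The 83 mature miRNA sequences with 10 or more reads in mature silks (MS) or pollinated silks (PS) of maize were compared between these silk libraries. The deposited table lists 270 named miRNAs, which carry 181 distinct mature sequences, and 83 of these sequences reached 10 reads in MS or PS. Known miRNAs gave 44 of the 83, and miRNAs that the study predicted from hairpins gave 39. All material came from the inbred line B73, grown in a greenhouse. MS were unpollinated silks about 5 cm out of the bracts. PS were such silks taken 30 min after an excess of active pollen had been put on them, with loose grains shaken off. PS thus held adhering pollen and pollen tubes beside silk tissue. Mature pollen (MP) and pollen kept for 30 min in liquid germination medium (GP) were sequenced too, and are given here as the background level in pollen. Each of the 4 tissues was 1 small RNA library, so no difference in these counts has a replicate check. A test compares 2 libraries, not the conditions. The paper reports similar patterns by stem-loop real-time RT-PCR for its differing miRNAs, and by northern blot for miR171b/f. Both methods give miR171b and miR171f as 1 entry. By real-time RT-PCR it also measured some predicted target genes, and reports that most ran opposite to their miRNAs. None of these measurements is part of the counts used here. The table holds no mRNA, so that the tissues could not be checked by marker genes.

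miRNAs are short RNAs cut from hairpin precursors by Dicer-like enzymes. Loaded into an ARGONAUTE protein, they guide the cleavage or the repression of mRNAs with a matching site. In plants, conserved families keep to 1 kind of target across species, often transcription factor genes, hormone receptor genes or genes of nutrient uptake. Silks are the stigmas and styles of the maize ear. A grain that lands on a silk takes up water, germinates and sends a tube through the tissue towards the ovule.

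The sequences on which the comparison turned are printed 5′ to 3′, with the seed (bases 2 to 8) in capitals, to show how close the members of a family are. The miR171 sequences come first, because miR171b and miR171f are the sequence of miR171d/e/i/j displaced by 3 nt, with 18 identical bases in the overlap.
miR171d/e/i/j: uGAUUGAGccgugccaauauc
miR171b: uUGAGCCGugccaauaucac
miR171f: uUGAGCCGugccaauaucaca
miR171a: uGAUUGAGccgcgccaauau
miR171l/m: gGAUUGAGccgcgucaauauc

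The other known sequences that passed a limit follow, each with some family members that differ from it by a few bases.
miR395a/b/d/e/f/g/h/i/j/n/p: gUGAAGUGuuugggggaacuc
miR827: uUAGAUGAccaucagcaaaca
miR528a/b: uGGAAGGGgcaugcagaggag
miR172a/b/c/d: aGAAUCUUgaugaugcugca
miR169f/g/h: uAGCCAAGgaugacuugccua
miR169i/j/k: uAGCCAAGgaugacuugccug
miR169p: uAGCCAAGgaugacuugccgg
miR169c/r: cAGCCAAGgaugacuugccgg
miR393a/c: uCCAAAGGgaucgcauugaucu
miR393b: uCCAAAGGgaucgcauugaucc
miR160a/b/c/d/e/g: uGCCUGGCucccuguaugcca
miR160f: uGCCUGGCucccuguaugccg
miR159h/i: uUUGGAGUgaagggagcucug
miR159a/b/f/j/k: uUUGGAUUgaagggagcucug
miR164a/b/c/d/g: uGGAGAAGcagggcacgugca
miR164f: uGGAGAAGcagggcacgugcu
miR164h: uGGAGAAGcagggcacgugug
A letter or a row of letters after the family number stands for all named miRNAs with that mature sequence, such as miR393a and miR393c. Predicted miRNAs are called by the hairpin number and arm of the deposited table, such as predicted 15-3p for the 3p arm of hairpin 15.

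Levels are given in TPM, the reads of a sequence scaled to the clean reads of its library, as in the study. The library depth was 5775303 clean reads in MS, 5205129 in PS, 3638941 in MP and 10575042 in GP, so that 1 read stood for 0.173 TPM (MS) or 0.192 TPM (PS). Of all clean reads, the 83 sequences took 3.26% in MS (188305 reads, exact 95% interval 3.25% to 3.28%). In PS they took 3.65% (189994 reads, 3.63% to 3.67%). The 10 most abundant held 94.7% of the member reads in MS and 90.2% in PS. A few sequences thus carried nearly all reads, and the median member stood at 5.02 TPM in MS against 7.11 TPM in PS. All intervals are exact and describe counting error alone: without molecular identifiers, PCR copies are not independent molecules. In whole silks, fewer cells with a miRNA and less of it per cell cannot be told apart.

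Most members passed neither limit of difference between MS and PS, and the largest differences lay in a few families. The median log2 ratio of PS to MS was 0.36 over the 83 sequences, 0.33 over the known and 0.52 over the predicted ones. Log2 ratios were above 0 in 56 of the 83 (39 of 83 under TMM scaling). Under limits taken from the study, 10 sequences were higher in PS, which is 12% of the 83, and 4 were lower, which is 4.82%. These limits were, for a higher sequence, a log2 ratio above 1.5 with more than 10 times the reads of at least 1 pollen library, and for a lower sequence a log2 ratio under -2. A limit of p under 0.01 in a 2-sided Fisher's exact test was added here for both. All 14 members past the log2 limits also passed the p limit. The minimum of 10 reads fixed the side of some ratios. The 12 members that reached it in PS alone all lay above 0 and gave 6 of the 10 higher. The 10 that reached it in MS alone all lay below 0 and gave 2 of the 4 lower. The 61 that reached it in both silk libraries gave 4 higher and 2 lower. A rule with the same size in both directions, a Benjamini-Hochberg adjusted p under 0.01 over the 83 and more than a 2-fold difference, called 15 higher (18.1%) and 6 lower (7.23%). Together 22 sequences passed one of the rules and 13 passed both. Of the other 61, some still differed by a little, as 20 sequences had an adjusted p under 0.01 in Fisher's exact test but lay within 2-fold. For 23 of the 83 the whole interval of the ratio lay within 2-fold.

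**Figure D1:**
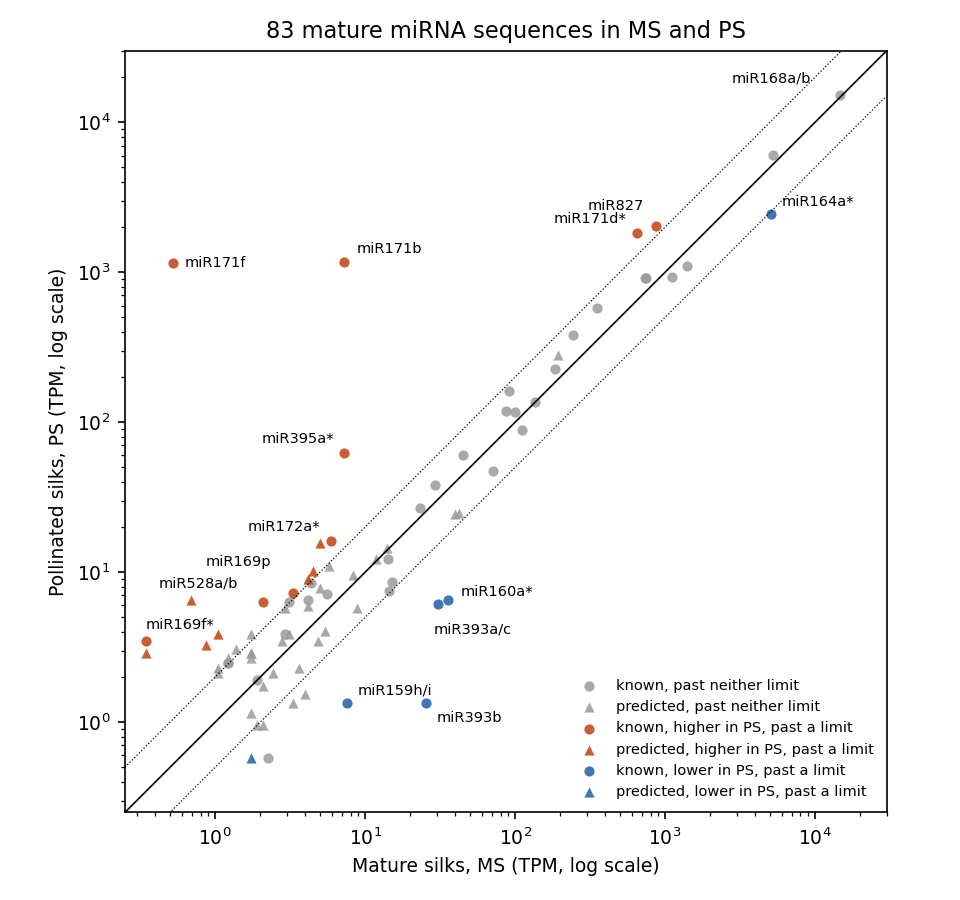
Level of the 83 sequences in MS (x axis, TPM, log scale) and PS (y axis, TPM, log scale), with lines of equality and of 2-fold difference; circles are known and triangles predicted miRNAs, and an asterisk marks a name that stands for 3 or more miRNAs. miR171f and miR171b lie far above the line, at 0.519 and 7.27 TPM on the x axis and 1160 and 1177 TPM on the y axis, and 61 of the 83 sequences are drawn in grey as past neither limit. A sequence with 0 reads is drawn at the floor of 3 reads.

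Scaling set where the zero of these ratios lies. Against clean reads, TMM factors moved every log2 ratio by -0.41, the median ratio moved it by -0.32 and the total of known reads by -0.16. Under TMM the median over the 83 was -0.05, and the 2-fold rule gave 8 higher and 13 lower sequences in place of 15 and 6, and the limits of the study gave 6 higher and 5 lower in place of 10 and 4. Of the 22 sequences, 15 passed a rule under all 3 scalings, 9 higher and 6 lower. The 7 that did not were miR169p, miR528a/b, miR827, predicted 20-5p, predicted 25c-3p, predicted 38a-3p and predicted 9-5p. None of the 22 changed direction under these 3 scalings, because the shifts were too small for any of them to do so.

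**Figure D2:**
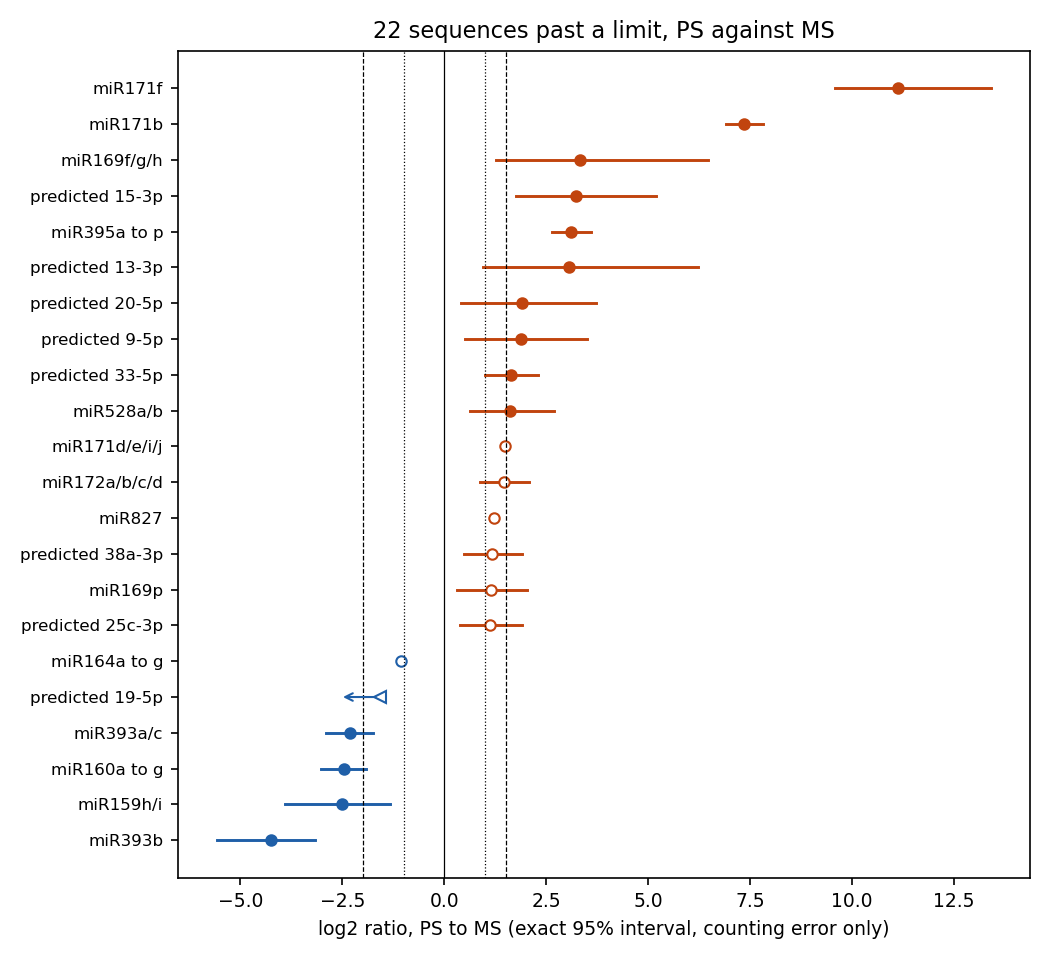
log2 ratio of PS to MS for the 22 sequences past a limit, ordered by the ratio, with exact 95% intervals as horizontal lines. Filled points passed the limits of the study and open points only the 2-fold rule, dotted lines mark log2 ratios of 1 and -1 and dashed lines 1.5 and -2. The interval of miR171f runs from 9.58 to 13.40, above those of all other sequences, and that of miR171b, at 6.90 to 7.81, lies above those of the rest. The arrow marks the bound for predicted 19-5p, which had 0 reads in PS.

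The largest ratios were those of the miR171 family, which guides the cleavage of mRNAs of GRAS transcription factors such as the HAIRY MERISTEM genes. miR171f had 3 reads in MS and 6037 in PS (0 in MP and 2 in GP), so that a sequence at the edge of detection in 3 libraries was among the 7 most abundant of the fourth. Its level was 2233-fold higher in PS (exact 95% interval 764 to 10830). The width of this interval comes from the 3 reads in MS. miR171b, which is miR171f without its last base, had 42 reads in MS and 6126 in PS (0 in MP and 2 in GP), and was 162-fold higher in PS (120 to 225). These sequences overlap so far that the same reads can be counted for both, and their counts are not independent. In MS the counts of the pair were unlike, with 42 reads for miR171b against 3 for miR171f, while in PS they were nearly equal.

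The sequence of miR171d/e/i/j, which holds the usual 5′ end of the family, was already abundant before pollination. It had 3766 reads in MS and 9502 in PS (12 in MP and 44 in GP), and was 2.80-fold higher in PS (2.70 to 2.91). Its log2 ratio of 1.49 lay just under the limit of 1.5 and past the 2-fold rule. In TPM, miR171d/e/i/j gained 1173, miR171b 1170 and miR171f 1159, and these were the largest gains of all 83 sequences, ahead of the 1147 TPM of miR827. The remaining members were rare and passed neither rule: miR171l/m had 24 reads in MS and 34 in PS, and miR171a and miR171n, which can share reads, had 7 and 13 each. Beside 56 of all 83 members above 0 and 22 past a rule, all 6 measured sequences of the family had log2 ratios above 0. These ran from 0.65 to 11.12, and 3 of the 6 passed a rule. However, miR171f, miR171a and miR171n reached 10 reads in PS alone, which put their ratios above 0. Summed over the 6 sequences, the family was 6.26-fold higher in PS (6.05 to 6.48). With miR171b and miR171f, and miR171a and miR171n, each counted once, the log2 ratio of the sum was 2.18 in place of 2.65. Whether reads of miR171d/e/i/j were counted for miR171b or miR171f too is not given in the sources used here. The sums may thus hold some reads more than once.

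miR395 and miR827 belong to the families that answer to sulfate and phosphate supply. miR395 acts on ATP sulfurylase and a sulfate transporter, and its mature sequence in this table is shared by 11 named miRNAs. It had 42 reads in MS and 324 in PS (0 in MP and 0 in GP), or 7.27 TPM before and 62.2 TPM after pollination. The level in PS was 8.56-fold higher (6.19 to 12.1; 2-sided Fisher's exact test, Benjamini-Hochberg adjusted p = 8.97e-61). Neither pollen library held a read of it. Its other sequence variants stayed under 10 reads, among them miR395c/l/m with 0 reads in MS and 5 in PS.

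miR827, which acts on SPX-domain proteins of phosphate homeostasis in Arabidopsis and rice, was abundant in both silk libraries and nearly absent from pollen. It had 5057 reads in MS and 10530 in PS (2 in MP and 0 in GP), and was 2.31-fold higher in PS (2.23 to 2.39). It rose from rank 6 to rank 4 among the members. Under TMM its log2 ratio was 0.80 in place of 1.21, below 2-fold. The miR399 family, which acts on the PHO2 ubiquitin-conjugating enzyme of the same pathway, passed neither rule. miR399e/i/j had 83 reads in MS and 39 in PS (log2 ratio -0.94), and miR399a/c/h had 17 and 20 (0.38), with 0 reads of both in pollen. Of the 3 members of the phosphate list, 1 passed a rule upward and 0 downward, beside 16 and 6 of all 83. The median log2 ratio of the list was 0.38, beside 0.36 over all members.

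The copper families act on laccases, plantacyanins and other copper proteins, whose mRNAs they hold down when copper is short. miR528a/b had 12 reads in MS and 33 in PS (3 in MP and 1 in GP), and was 3.05-fold higher in PS (1.54 to 6.49). Its log2 ratio of 1.61 fell to 1.20 under TMM and to 1.29 under the median ratio, below the limit of 1.5. miR408/b, with 529 and 837 reads in MS and PS, had a ratio of 1.76 (1.57 to 1.96), inside 2-fold. miR398a/b had 11 and 10 reads, which leaves the ratio anywhere from 0.384 to 2.62. The list of 3 members thus held 1 higher sequence, beside 16 of all 83 by either rule. The median log2 ratio of the list was 0.81, beside 0.36 over all members.

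miR169 targets NF-YA subunits of the CCAAT-binding complex, and its members share the seed AGCCAAG. miR169f/g/h had 2 reads in MS and 18 in PS (0 in MP and 4 in GP), a ratio of 9.99 (2.39 to 88.7). The interval is wide because MS held 2 reads. This sequence reached 10 reads in PS alone, which put its ratio above 0. miR169p had 19 reads in MS and 38 in PS (1 in MP and 0 in GP), 2.22-fold higher in PS (1.25 to 4.08), at an adjusted p of 0.0099 in Fisher's exact test. It was no longer past 2-fold under any of the 3 other scalings. miR169i/j/k, the nearest to miR169f/g/h with the substitution A21G alone, had 18 reads in MS and 33 in PS, a ratio of 2.03 (1.11 to 3.84) at an adjusted p of 0.0297 in Fisher's exact test, and passed neither rule. The abundant miR169c/r and miR169a/b were inside 2-fold, with 2033 and 3010 reads and with 1407 and 1979 reads in MS and PS. Beside 56 of all 83 members above 0 and 22 past a rule, all 5 measured members of the family had log2 ratios above 0. Their median was 1.02, and 2 passed a rule. The ratio of miR169f/g/h to the others was not tested, and against miR169p its substitutions are U20G and A21G. Positions are counted from the 5′ end, and the base of the sequence named first stands first.

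Predicted 33-5p carries the miR169 seed and was higher in PS too.
predicted 33-5p: uAGCCAAGcaugauuugcccgu
miR169p: uAGCCAAGgaugacuugccgg
From miR169p to predicted 33-5p the substitutions were G9C, C14U and G20C over 21 aligned bases, and predicted 33-5p has 1 base more. It had 0 reads in both pollen libraries, 29 in MS and 81 in PS, a 3.10-fold higher level in PS (2.01 to 4.91; 2-sided Fisher's exact test, Benjamini-Hochberg adjusted p = 1.14e-07). The deposited target list gives it 2 genes, GRMZM2G078124 and GRMZM2G323271. Both genes are also among the 5 listed for miR169p. The 6 members with this seed had a median log2 ratio of 1.09.

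The auxin families, with 7 of the 83 members, held 3 of the 6 lower sequences. miR393 acts on the F-box auxin receptors of the TIR1/AFB group. miR393b had 147 reads in MS and 7 in PS (1 in MP and 11 in GP), an 18.9-fold lower level in PS (exact 95% interval 8.96 to 47.9; 2-sided Fisher's exact test, Benjamini-Hochberg adjusted p = 2.26e-31). miR393a/c had 176 reads in MS and 32 in PS (3 in MP and 12 in GP), 4.96-fold lower in PS (3.39 to 7.47). These sequences differ only in the last base (U22C, miR393a/c first), yet their intervals of the ratio do not overlap. miR393b went from rank 26 to rank 77 of the 83. The target list names 3 genes for miR393b, GRMZM2G135978, GRMZM2G137451 and GRMZM5G848945, and none for miR393a/c.

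miR160, which acts on the repressor-type auxin response factors ARF10, ARF16 and ARF17, was lower in PS too. miR160a/b/c/d/e/g had 207 reads in MS and 34 in PS (8 in MP and 2 in GP), a 5.49-fold lower level in PS (3.80 to 8.14; 2-sided Fisher's exact test, Benjamini-Hochberg adjusted p = 6.25e-27). miR160f, which differs in the last base (A21G), had 13 reads in MS and 3 in PS, with a log2 ratio of -1.97 and an adjusted p of 0.0415 in Fisher's exact test. It passed neither rule. The target lists of these sequences were nearly the same, with 10 genes shared of 10 for miR160a/b/c/d/e/g and of 11 for miR160f.

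The other auxin families stayed inside 2-fold. miR167, which acts on ARF6 and ARF8, had 574 and 607 reads for miR167a/b/c/d and 1063 and 1184 reads for miR167e/f/g/h/i/j in MS and PS. The family sum was 1.21-fold higher in PS on clean reads (1.13 to 1.30), and its log2 ratio changed sign under TMM (-0.13) and the median ratio (-0.040). miR390a/b, which starts the production of the tasiRNAs against ARF3 and ARF4, had 641 and 459 reads, a log2 ratio of -0.33. Of the 7 members of the auxin list, 0 passed upward and 3 downward, beside 16 and 6 of all 83 by either rule. The median log2 ratio of the list was -1.97, which is the value of miR160f, beside 0.36 over all 83. However, miR160f and miR393b reached the minimum of reads in MS alone, which put their ratios below 0. The median and the count of lower members thus rest in part on the minimum. In reads the list hardly moved, with a summed ratio of 0.915 (0.866 to 0.967), because miR167 held most of the reads.

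miR159h/i was the last known sequence past the lower limit of the study, and it is a pollen-rich one. It had 44 reads in MS and 7 in PS (408 in MP and 3696 in GP). The level in PS was 5.67-fold lower than in MS (2.53 to 14.9), although PS carried pollen in which the sequence stood at 112 TPM (MP) and 350 TPM (GP). The related miR159a/b/f/j/k, which differs from it at 1 base (U7G, miR159a/b/f/j/k first) and acts on GAMYB-type MYB genes, had 30449 reads in MS and 31546 in PS. Its log2 ratio of 0.20 turned negative under TMM and the median ratio. The miR159 family thus held 1 lower sequence among 2 measured members, beside 6 of all 83 by either rule. However, miR159h/i reached the minimum of reads in MS alone, which put its level in PS below that in MS. The sum of the family, ruled by miR159a/b/f/j/k, differed by a ratio of 1.15 (1.13 to 1.17).

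miR164 limits the mRNAs of NAC transcription factors of the CUP-SHAPED COTYLEDON group and had the largest loss in absolute level. miR164a/b/c/d/g had 29333 reads in MS and 12740 in PS (4 in MP and 0 in GP). This is 5079 TPM against 2448 TPM, 2.08-fold lower in PS (2.03 to 2.12). It kept rank 3 in both silk libraries, but its part of the member reads dropped from 15.6% to 6.71%. miR164f had 412 and 247 reads in MS and PS and miR164h had 82 and 64, with log2 ratios of -0.59 and -0.21, both inside 2-fold. The 3 sequences differ only at bases 20 and 21 (A21U in miR164f, C20U and A21G in miR164h). A test between their ratios was not made, but the interval of the log2 ratio of miR164a/b/c/d/g, -1.08 to -1.02, lies below -0.59 and -0.21.

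The remaining families of leaf and meristem development showed no sequence past a rule apart from miR171. miR166, which acts on HD-ZIP III genes, had 4 measured sequences with log2 ratios from 0.31 to 0.42, and 2 of the 4 can share reads. Under TMM and the median ratio, the sign of the miR166 sum changed. miR396c/d, a regulator of GRF genes, had 6380 reads in MS and 4816 in PS, a log2 ratio of -0.26, and miR396a/b had 779 and 714, a log2 ratio of 0.024. miR319a/b/c/d, a regulator of TCP genes, had 135 and 139 reads, with a ratio of 1.14 (0.895 to 1.46) that fell below 1 under TMM and the median ratio. The 17 members of this list, miR171 and miR164 included, held 3 sequences higher and 1 lower by the 2-fold rule, beside 15 and 6 of all 83. The median log2 ratio of the list was 0.36, which is that of all members.

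Of the 3 members of the flowering list, 1 passed a rule, beside 22 of all 83. miR172a/b/c/d, which acts on AP2-like genes, had 34 reads in MS and 84 in PS (0 in MP and 5 in GP), and was 2.74-fold higher in PS (1.82 to 4.21), past the 2-fold rule and just short of the log2 limit of 1.5. miR156, which acts on SPL genes upstream of miR172 in shoot development, had 8064 reads in MS and 5745 in PS for the sequence that 10 of its named miRNAs share. Its level of 1396 TPM in MS compared with 1104 TPM in PS, a log2 ratio of -0.34 (-0.39 to -0.29). miR156k, with 87 and 45 reads, had a log2 ratio of -0.80. Neither miR156 sequence passed 2-fold.

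The families that feed back on the miRNA machinery, miR168 and miR162, passed neither rule. miR168a/b, which acts on AGO1, had 84729 reads in MS and 79555 in PS and stayed first in both libraries. Its ratio was 1.04 (1.03 to 1.05), and it fell below 1 under each of the 3 other scalings. miR162, which acts on DCL1, had 506 and 622 reads, a ratio of 1.36 (1.21 to 1.54). miR394a/b, which acts on an F-box gene of the shoot meristem, had 0 reads in pollen, 25 in MS and 44 in PS. Its ratio of 1.95 (1.17 to 3.33) had an adjusted p of 0.0144 in Fisher's exact test and passed neither rule.

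**Figure D3:**
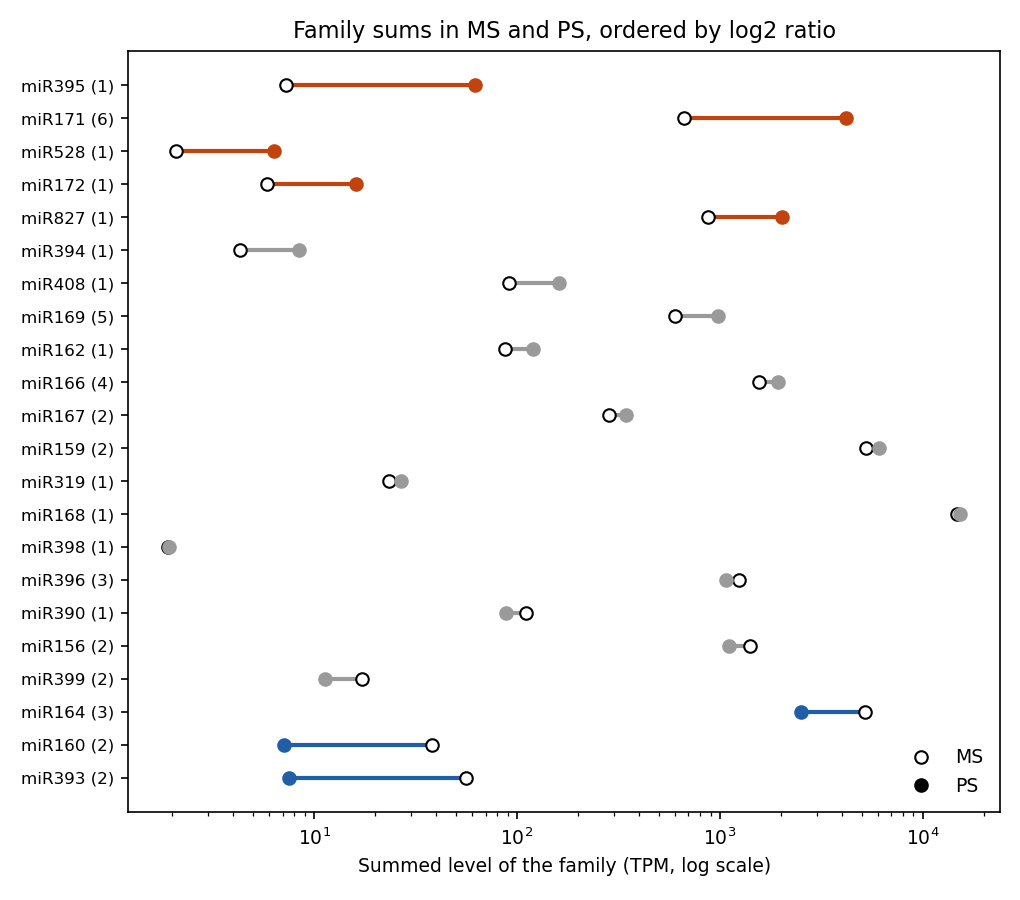
Summed level of each known family in MS (open circles) and PS (filled circles) on a log scale of TPM, with the number of measured sequences in brackets, ordered by the log2 ratio of the sums. Lines in red are families over 2-fold higher and lines in blue families over 2-fold lower in PS: 5 families (miR395, miR171, miR528, miR172, miR827) lie on the first side and 3 (miR393, miR160, miR164) on the other, and 14 of the 22 stay within 2-fold.

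By family, 22 of the 27 families of the table had a measured sequence. Their sums were over 2-fold higher in PS for 5 families and over 2-fold lower for 3. For 11 of the 22 the whole interval lay within 2-fold. The 5 families without a measured sequence were miR397, miR529, miR1432, miR2118 and miR2275, whose best sequence had at most 2 reads in either silk library. No difference in these was detectable at this depth. They include both families that trigger phased siRNAs in maize anthers, miR2118 and miR2275.

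Predicted members of 24 nt were 20 of the 39. Of these 20, 4 were higher by the limits of the study and 5 by the 2-fold rule, beside 12% and 18.1% over all 83 members, and 0 were lower by either. The 4 were predicted 9-5p, 13-3p, 15-3p and 20-5p, which had under 10 reads in MS and entered the 83 through PS alone. Such a sequence lies above 0 by the entry rule, so these counts do not measure a trait of the length. Predicted 25c-3p and 38a-3p had 10 or more reads in both silk libraries. Of the 11 of 21 nt, 0 were higher and 1 lower by the 2-fold rule, and of the 8 of 22 nt, 1 was higher by both rules, predicted 33-5p. The median log2 ratio was 1.07 over the 24-nt members, 0.31 over those of 22 nt (below 0 under TMM and the median ratio) and -0.59 over those of 21 nt. The 24-nt median rests in part on sequences that reached 10 reads in PS alone. These include predicted 22-3p, 25a-3p, 25b-3p and 58-3p beside those named above, and their ratios lay above 0 by the entry rule. The median of the 21-nt members rests on low counts, and in part on sequences that reached 10 reads in MS alone. These were predicted 19-5p, which is the 1 lower sequence, 26-3p, 29-3p, 43-3p and 50-5p. Their ratios lay below 0 by the entry rule. Among the 8 members of 21 nt with 20 or more reads in MS and PS together the median was 0.29. As summed reads the 24-nt members differed little, with 520 reads in MS and 547 in PS, with the abundant predicted 53-3p at 245 and 129 reads among them. Beside 61 of all 83 members, 31 of the 39 predicted members passed neither rule. The most abundant of them, predicted 11-3p of 22 nt, had 1112 reads in MS and 1460 in PS (1 in MP and 7 in GP), with a ratio of 1.46 (1.35 to 1.58). Predicted 55-5p, also of 22 nt, had 228 and 127 reads in the silks, a log2 ratio of -0.69. Plant small RNAs of 24 nt mostly come from the heterochromatic siRNA pathway, and the labels do not say which Dicer-like enzyme made these.

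**Figure D4:**
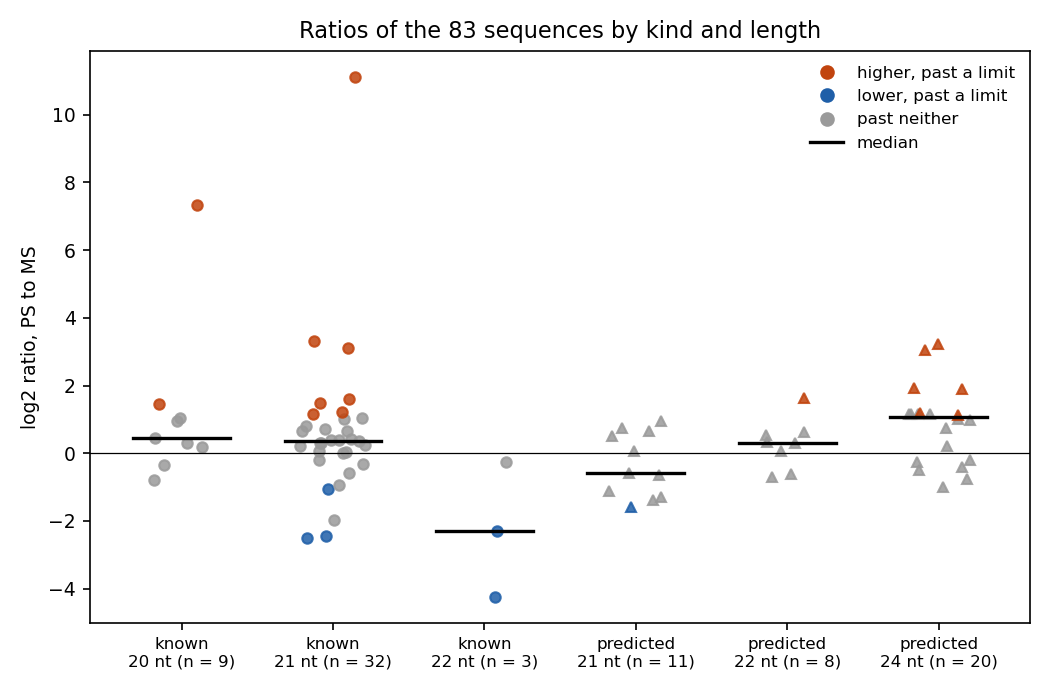
log2 ratio of PS to MS (y axis) of the 83 sequences by kind and length; each point is 1 sequence, circles known and triangles predicted, spread sideways for sight only, and the black bar is the median of the class. The 24-nt predicted class has its bar at 1.07 and holds 6 red points and no blue one, while the 21-nt predicted class has its bar at -0.59.

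The 24-nt sequences past a rule are printed with the seed in capitals, to show what some of them share.
predicted 15-3p: aGCACCGUuggauauggagggugu
predicted 13-3p: aAAACCCCcugacgcagcaccguu
predicted 25c-3p: gACGCAGCaccguuggauguggag
predicted 9-5p: aAACCAUCugauccguuagaucgu
predicted 20-5p: gUUCGUUUuggaguggauugaggg
predicted 38a-3p: aUUCCCCCucuggauugguguaac
Predicted 15-3p had 4 reads in MS and 34 in PS, 9.43-fold higher in PS (3.36 to 36.6), and predicted 13-3p had 2 and 15 reads, a ratio of 8.32 (1.94 to 75.0). Predicted 9-5p had 6 and 20 reads (3.70-fold, 1.43 to 11.3), and predicted 20-5p had 5 and 17 (3.77-fold, 1.34 to 13.1). All 4 had 0 reads in both pollen libraries. For predicted 20-5p the Benjamini-Hochberg adjusted p of Fisher's exact test was 0.0103, short of the 2-fold rule. Predicted 38a-3p (26 and 53 reads, 1 in GP) and predicted 25c-3p (24 and 47 reads, 0 in pollen) were 2.26-fold (1.39 to 3.77) and 2.17-fold (1.30 to 3.72) higher in PS. These 6 sequences were thus rare in both silk libraries, with 0.346 to 4.50 TPM before and 2.88 to 10.2 TPM after pollination.

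Several of the 24-nt sequences share a run of 12 bases. The run AGCACCGUUGGA, or its other strand UCCAACGGUGCU, was the longest run shared by the predicted sequences that hold the most common 10-mer. It was found in 13 predicted and 0 known sequences, 7.18% of the 181 distinct sequences, and 12 of the 13 are of 24 nt. The 7 holders among the 83 members are printed with the run in capitals.
predicted 15-3p: AGCACCGUUGGAuauggagggugu
predicted 22-3p: acacAGCACCGUUGGAuguggagg
predicted 25a-3p: gauauAGCACCGUUGGAuguggag
predicted 25b-3p: gacacAGCACCGUUGGAuguggag
predicted 25c-3p: gacgcAGCACCGUUGGAuguggag
predicted 60-3p: acAGCACCGUUGGAuguggagggu
predicted 5-5p: aUCCAACGGUGCUgugucaggggg
Of these 7, 6 had log2 ratios above 0 and 2 passed a rule. Among all 20 predicted members of 24 nt, these 7 included, 14 lay above 0 and 14 passed neither rule. Predicted 15-3p, 22-3p, 25a-3p and 25b-3p reached 10 reads in PS alone, which put their ratios above 0. Counts in MS and PS were 6 and 12 for predicted 22-3p, 8 and 16 for predicted 25a-3p and 6 and 11 for predicted 25b-3p. They were 14 and 11 for predicted 60-3p and 10 and 15 for predicted 5-5p. None of these 5 passed a rule. Predicted 22-3p, predicted 25b-3p and predicted 60-3p can share reads, so the counts are not independent. From predicted 15-3p to predicted 22-3p, aligned with a shift of 4 nt, the substitution is A14G, counted in predicted 15-3p. Predicted 13-3p ends with the first 9 bases of the run.

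The share of reads from each arm of a hairpin could differ between the libraries. Of 6 predicted hairpins with at least 10 reads on each arm in MS and PS together, hairpin 9 had the smallest p. Its 5p arm had 6 reads in MS and 20 in PS, and its 3p arm 28 and 18. The 5p arm thus gave 17.6% of the reads of the hairpin in MS (exact 95% interval 6.76% to 34.5%) and 52.6% in PS (35.8% to 69.0%), with a Benjamini-Hochberg adjusted p of 0.0178 over the 6 in Fisher's exact test. For hairpin 53, the deepest, the share of the 5p arm was 17.2% in MS and 18.9% in PS, although both arms had fewer reads in PS (51 and 30 for 5p, 245 and 129 for 3p). In hairpin 13 the share of the 5p arm was 84.6% in MS (54.6% to 98.1%) and 48.3% in PS (29.4% to 67.5%), on 13 and 29 reads, at an adjusted p of 0.0944 in Fisher's exact test. The other 3 hairpins had adjusted p values from 0.0944 to 1 in the same exact test.

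The level in pollen bears on every higher sequence, since PS carried pollen. Of the 16 sequences higher in PS by either rule, 16 stood below their PS level in both pollen libraries, and 15 stood below their MS level too. The exception to the latter was miR169f/g/h, with 4 reads in GP (0.378 TPM) against 2 in MS (0.346 TPM). The highest pollen level among the 16 was 4.16 TPM, of miR171d/e/i/j in GP, and 7 of them had 0 reads in both pollen libraries. A low pollen count is itself part of the limits of the study. Summed over all 83 members, pollen stood lower too, at 5533 TPM (MP) and 4264 TPM (GP). The silk sums were 32605 TPM (MS) and 36501 TPM (PS). How many of the 83 stood below their PS level in both pollen libraries was not counted, so this does not set the 16 apart. In all, 28 of the 83 members had 0 reads in both pollen libraries. Of these 28, 6 were higher by the limits of the study and 0 lower, beside 10 and 4 of all 83. Among the 6, predicted 9-5p, 13-3p, 15-3p and 20-5p reached the minimum of 10 reads in PS alone, which put their ratios above 0. The part of pollen RNA in the PS values was not tested.

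**Figure D5:**
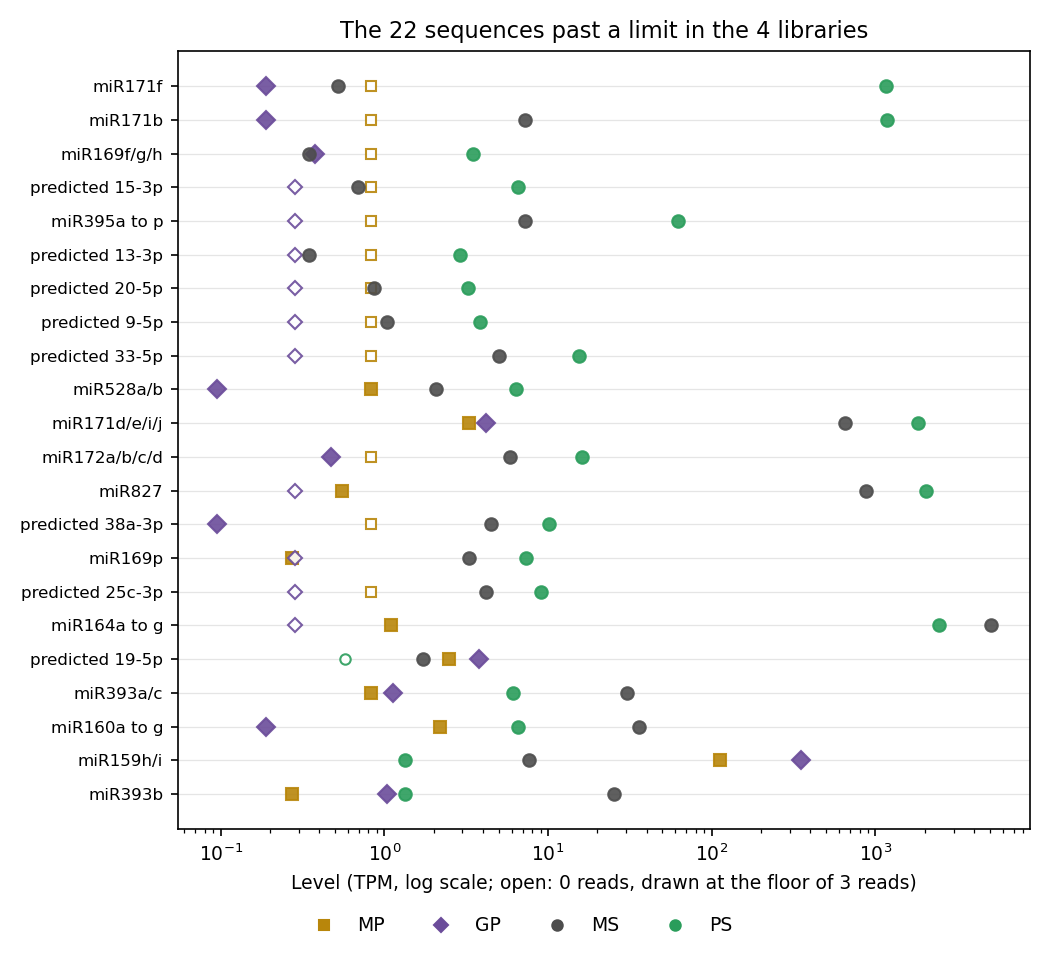
Level in TPM (log scale) of the 22 sequences past a limit in MP and GP (pollen, mature and germinated) and in MS and PS (silks), in the order of the plot of ratios; open symbols have 0 reads and are drawn at the floor of 3 reads. For the 16 sequences at the top PS is the highest library, and miR159h/i and predicted 19-5p are the sequences with pollen to the right of both silk libraries.

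Summed, the sequences rich in pollen were lower in PS than in MS. With at least 5 TPM in MP or GP and 5 times the mean TPM of MS and PS, 22 of the 181 distinct sequences counted as pollen-rich, of which 3 were among the 83 members. Summed, these 22 reached 276 TPM (MP) and 574 TPM (GP) in pollen but 21.99 TPM (MS) and 6.92 TPM (PS) in silks. They had 127 reads in MS and 36 in PS, 3.18-fold lower in PS (exact 95% interval 2.18 to 4.74). By TPM, 17 of the 22 were lower in PS than in MS, 2 were higher and 3 had 0 reads in both silk libraries. Without miR159h/i the other 21 had 83 and 29 reads, 2.58-fold lower in PS (1.67 to 4.08). Of the 3 members, miR159h/i passed the lower limit, predicted 29-3p had 12 and 5 reads and predicted 12-5p had 10 and 15 reads in MS and PS. The rule used the MS and PS levels together, so it does not by itself set which of them is higher.

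Predicted 19-5p had a like pattern at lower counts. It had 10 reads in MS and 0 in PS (9 in MP and 40 in GP). Against the floor of 3 reads per library its log2 ratio was -1.59 or lower. It passed the 2-fold rule with a Benjamini-Hochberg adjusted p of 0.0048 in Fisher's exact test.
predicted 19-5p: gUUUGGAGgagauugaggggc
Below the minimum of 10 reads, predicted 57-3p had 9 reads in MS and 0 in PS (42 in MP and 268 in GP) and predicted 56-5p had 8 reads in MS and 0 in PS (212 in MP and 112 in GP). Just under the minimum on the other side was miR169l, with 0 reads in all libraries but PS, where it had 8. Of the 98 sequences below the minimum, 29 had reads in MS and 0 in PS, 13 had reads in PS and 0 in MS, and 23 had 0 in both.

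By the target lists of the deposited table, 52 of the 83 members had a predicted target gene, 43 known and 9 predicted ones. The lists come from sequence alone and carry no expression. The sequences past a rule had 78 target genes, of which 34 were matched to an entry of the RefSeq gene table (assembly Zm-B73-REFERENCE-NAM-5.0). miR395a/b/d/e/f/g/h/i/j/n/p had 3, among them GRMZM2G042171, named sfp3 in RefSeq, with a site at bases 305 to 325 of its transcript. The displaced miR171b kept most of the list of miR171d/e/i/j, with 12 genes shared, 80.0% of its own 15 and 92.3% of the 13 of miR171d/e/i/j. miR827 had 1 listed gene, GRMZM2G157422. Of the 6 predicted 24-nt sequences past a rule, none had a listed target.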

How the data were processed

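Small RNA of B73 pollen and silks was sequenced by the authors (1 library for each tissue). SOAP placed clean reads on the B73 genome (release 5a.59), rRNA, tRNA and snoRNA were removed, and known miRNAs were taken by Blastn against miRBase. The deposited counts are whole reads per named miRNA. The deposited TPM values are these counts scaled by the authors to clean reads, and the clean reads were computed from both. Columns of the authors' p-values were not used, and 0 columns of values per sample were left out.

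Names with the same mature sequence were joined, with the counts of the name that had most reads. For each sequence, a 2-sided Fisher's exact test set its reads in PS and MS against all other clean reads (scipy 1.17.1), with Clopper-Pearson intervals. For a count of 0, the floor of 3 reads took its place. Sequences were taken to share reads at an overlap of 18 nt or more and an offset of 2 nt or less. edgeR gave only the TMM factors. Sequences named are those past a rule, the 10 most abundant in MS or PS, known members of the family lists, and predicted ones that share reads, a hairpin or a 10-mer with a named one. Others were chosen after their values were seen: miR169l, miR395c/l/m, predicted 11-3p, predicted 53-3p, predicted 55-5p, predicted 56-5p, predicted 57-3p and the other pollen-rich sequences. Predicted 26-3p, predicted 43-3p and predicted 50-5p were named because they reached 10 reads in MS alone. Members and lists were chosen with earlier results of these data known. The test was tried on simulated counts.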

Additional observations from a re-analysis of the deposited data

How the results depend on the processing

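Alternatives were other scalings, other minimum counts, other ways to join names, another test and other limits. By the 2-fold rule, 15 sequences were higher and 6 lower. These numbers became 8 and 13 under TMM, 9 and 11 under the median ratio, 35 and 17 with a row per name, and 8 higher with at least 50 reads. By the limits of the study 10 were higher and 4 lower. These became 6 higher under TMM and under the median ratio, 4 higher with at least 50 reads, and 23 higher and 11 lower with a row per name. A row per name counts a shared sequence once for each name, and the 50-read minimum tested 41 sequences. The other alternatives left these counts within 1.5 times. The median log2 ratio of predicted sequences was, under TMM and the median ratio, -1.0 and -0.91 for 21 nt, -0.10 and -0.0090 for 22 nt, and 0.66 and 0.75 for 24 nt. It was 0.15 for 22 nt under the total of known reads and 0.29 for 21 nt with at least 20 reads. A scaling shifts all ratios alike, so the order of the lengths held under the 3 scalings. With 10 times the silk mean, the pollen-rich sum had a log2 ratio of -2.33 in place of -1.67. Among 29 named sequences, 17 values under other scalings fell below a rule, at log2 ratios from 0.71 to 1.75. Of the 22 sequences past a rule, 0 changed direction under another scaling, and the shifts were too small for any of them to do so. Of all 83, 17 changed sign under TMM, 13 under the median ratio and 5 under the total of known reads. With 1 library per tissue, no library could be left out. No paired analysis was possible because each group holds 1 library.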
